A study of Rattus norvegicus with 12 samples.

Results

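The genes described here are the chains of the rat class II major histocompatibility complex (called RT1 in the rat), the invariant chain Cd74 and the class II transactivator Ciita. Their members were the probe sets whose platform annotation gave 1 of 8 symbols, Cd74, RT1-Ba, RT1-Bb, RT1-Da, RT1-Db1, RT1-DMa, RT1-DMb and Ciita. This rule found 14 of the 31099 probe sets on the array, and each of the 8 genes had at least 1. The arrays measured parietal cortex RNA, 1 array per rat, from 6 aged and 6 young male F344 rats, which the labels give as 21 to 23 and 3 to 5 months old. All rats carried telemetry implants, had been trained in the Morris water maze and were killed after its probe trial. Parietal cortex is what the titles say, but in the tissue field it is frontal cortex.

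Class II molecules present peptides taken up from outside the cell to CD4 T cells, and each is a pair of an alpha and a beta chain, here RT1-Ba with RT1-Bb and RT1-Da with RT1-Db1. The invariant chain Cd74 accompanies the pair to the endosome, and the heterodimer of RT1-DMa and RT1-DMb then exchanges the remnant of Cd74 for a peptide. Ciita is the transactivator on which transcription of these genes depends. In the brain, class II is best known from microglia, border macrophages and infiltrating immune cells, and is low in the healthy young parenchyma.

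Ciita does not bind DNA itself but acts through factors on the X and Y boxes of class II promoters, so these promoters are shown for the chains that results below turn on. RefSeq promoters (build GRCr8, from the BN strain, not F344) were matched for 6 of the 8 genes, and RT1-DMb and Ciita were not matched. The last 130 bases before the annotated start are printed 5′ to 3′, with matches to an X box core (G, any 2 bases, AC, any base, then GATG) and a Y box core (TGATTGG) in capitals. The segments lie at chr20:4515285-4515414, plus strand (RT1-Da), chr20:4560163-4560292, minus strand (RT1-Db1), chr20:4576927-4577056, plus strand (RT1-Ba), chr20:4604119-4604248, minus strand (RT1-Bb) and chr20:4712336-4712465, minus strand (RT1-DMa).
RT1-Da: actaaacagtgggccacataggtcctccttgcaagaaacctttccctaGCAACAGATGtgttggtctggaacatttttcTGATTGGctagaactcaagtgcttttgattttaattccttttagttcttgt
RT1-Db1: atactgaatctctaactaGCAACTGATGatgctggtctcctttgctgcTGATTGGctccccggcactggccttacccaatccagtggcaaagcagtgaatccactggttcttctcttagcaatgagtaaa
RT1-Ba: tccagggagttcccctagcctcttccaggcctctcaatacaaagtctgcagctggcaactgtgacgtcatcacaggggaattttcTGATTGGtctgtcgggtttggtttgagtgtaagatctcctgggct
RT1-Bb: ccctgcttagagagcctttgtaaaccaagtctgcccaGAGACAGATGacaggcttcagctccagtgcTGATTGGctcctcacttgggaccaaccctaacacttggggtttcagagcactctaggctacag
RT1-DMa: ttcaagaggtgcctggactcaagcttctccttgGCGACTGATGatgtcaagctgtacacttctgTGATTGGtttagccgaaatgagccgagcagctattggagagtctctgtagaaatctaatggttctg
The X box core preceded the Y box core by 21 bases in RT1-Da and RT1-DMa and by 20 bases in RT1-Db1 and RT1-Bb, counting the bases between them. In RT1-Ba only the Y box core was matched. The Cd74 promoter held neither core in the 250 bases before its start. Over all 33469 RefSeq promoters, searched on both strands over the same 250 bases, 2.26% held the X box core and 6.42% the Y box core. The X box core followed by the Y box core within 30 bases on the sense strand was found in 7 promoters (0.0209%). Of these, 6 were class II genes, RT1-Da, RT1-Db1, RT1-Db2, RT1-Bb, RT1-DMa and RT1-DOb, and the other was Hsd17b7. The letters of both cores were chosen with these promoters in view, so the shares describe the letters and test nothing.

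**Figure D1:**
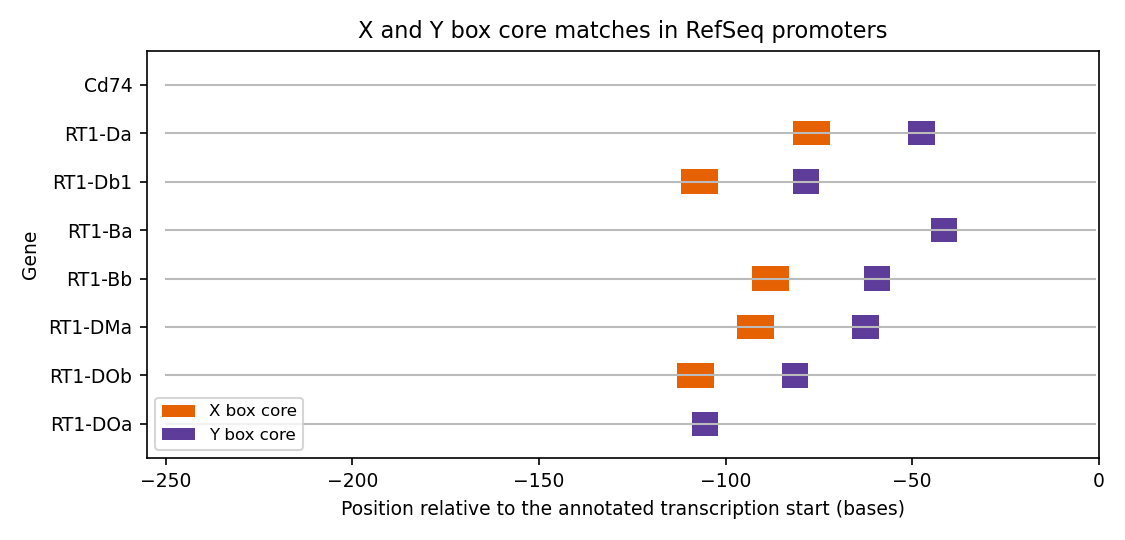
Positions (x axis, bases before the annotated start) of matches to the X box core (orange) and the Y box core (purple) in the RefSeq promoters of the class II genes on the y axis. In RT1-Da, RT1-Db1, RT1-Bb, RT1-DMa and RT1-DOb the X box core lies upstream of the Y box core, RT1-Ba and RT1-DOa have the Y box core alone, and Cd74 has neither.

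The classical class II chains and Cd74 had higher signals in aged than in young parietal cortex, by 1.71-fold to 2.72-fold for the brightest probe set of each gene, whereas the mean signals of RT1-DMa, RT1-DMb and Ciita differed by less than the spread between rats. Of the 14 probe sets, 12 exceeded the detection cutoff (4.3 on the log2 scale, a signal of 19.7) on at least 3 arrays and were tested with limma, and 6 of these were higher in aged rats at an unadjusted p up to 0.01, the threshold used in the study, and 0 were lower. One of the 6, RT1-Db1 1370382_at, passed the filter only through aged rats, in which alone it exceeded the cutoff, and the count is a description. Over all 28193 probe sets tested 1.63% were higher and 0.514% lower at this threshold, or 460 against 145. Of the 8 class II probe sets above the cutoff on all 12 arrays, 4 were higher and none lower, against 1.84% of all such probe sets higher. The split over all probe sets was 266 against 221 with quantile normalization and 255 against 341 with median centring, and 5 of the 12 class II probe sets were higher with each. At an unadjusted p up to 0.05 the 12 again gave 6 higher and 0 lower, against 5.67% and 2.13% of all probe sets. A log2 fold change (aged minus young, as throughout) of at least 1 was found in 5 of the 12 (RT1-Db1 1370382_at among them, with every young value below the cutoff), against 1.76% of all, and one above 0 in 11 of the 12, against 57.7%. None of the 12 passed an adjusted p under 0.05 (Benjamini-Hochberg over all probe sets), which 0.0213% of all probe sets passed upwards and 0.00355% downwards, so no class II gene is called changed by that test. The median log2 fold change of the 12 was 0.53, against 0.029 over all probe sets, and that of all 14 with no filter was 0.20, against 0.033. In these bulk samples more cells that express class II and more RNA per cell cannot be told apart.

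**Figure D2:**
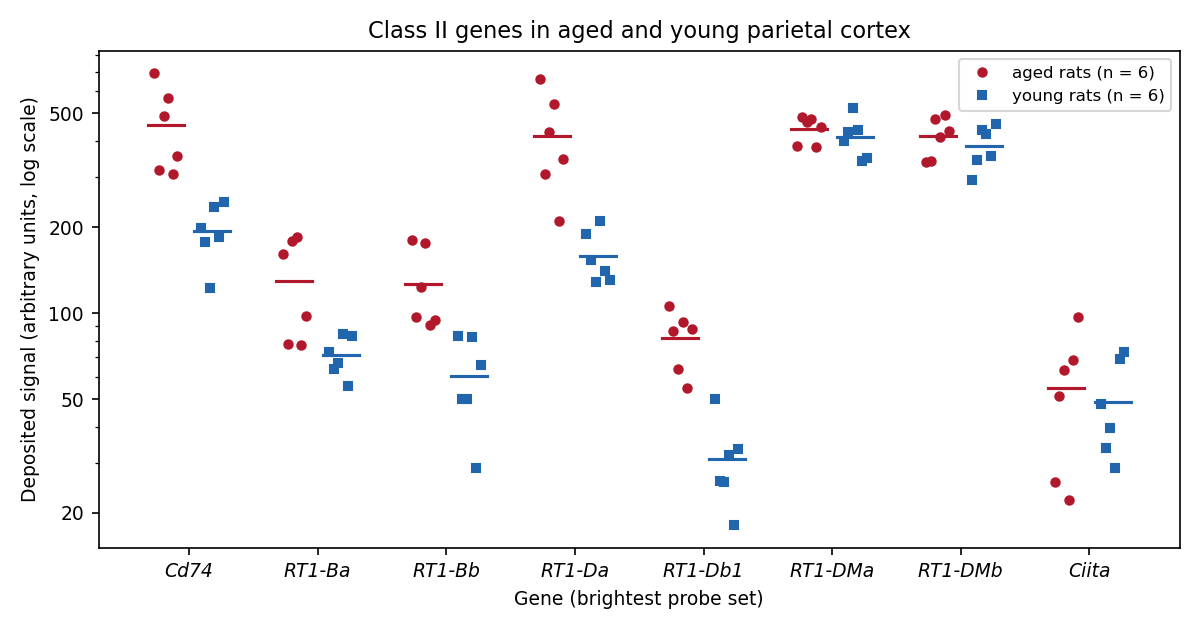
Signal per array (y axis, log scale) for the brightest probe set of each class II gene (x axis), with 1 point per rat, aged rats left of young rats, and a line at each mean. For Cd74, RT1-Bb, RT1-Da and RT1-Db1 all 6 aged rats lie above all 6 young rats, and for RT1-DMa, RT1-DMb and Ciita the groups overlap.

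RT1-Db1, the beta chain of the D pair, was measured by 2 probe sets. Its brighter probe set, 1370383_s_at, ran from 54.6 to 106 in aged rats (median 87.3) and from 18.1 to 50 in young rats (median 29.0). No aged value lay within the young range. The log2 fold change was 1.45 (standard error 0.24, unadjusted p = 5.73e-05, adjusted p = 0.115 from limma), the 14th smallest p of the 28193. The dimmer probe set, 1370382_at, ran from 9.52 to 73.2 in aged rats (median 32.8) and from 1.17 to 14.6 in young rats (median 6.07). Every young value and that of aged rat 3 lay below the cutoff, so with young values set to the cutoff it was at least 1.5-fold higher in aged rats, from the mean log2 signal (limma on the signals as measured gave an adjusted p of 0.31). The suffix of 1370383_s_at marks probes shared between transcripts, and RT1 genes form a family of near copies, so which beta chain transcripts it reads is uncertain.

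RT1-Da, the alpha chain that pairs with RT1-Db1, had signals from 211 to 660 in aged rats (median 390) and from 129 to 210 in young rats (median 147). The groups did not overlap, but aged rat 5, at 211, lay next to young rat 4, at 210. The log2 fold change was 1.31 (95% interval 0.76 to 1.87, adjusted p = 0.186 from limma), or 2.49-fold. Cd74, the invariant chain, ran from 306 to 691 in aged rats (median 423) and from 122 to 245 in young rats (median 192), again without overlap. Its log2 fold change was 1.20 (95% interval 0.69 to 1.70, adjusted p = 0.186 from limma), or 2.29-fold. For RT1-Da, Cd74, RT1-Bb and the brighter RT1-Db1 probe set the exact permutation test over all splits of the 12 rats gave p = 0.00216 (two-sided), the smallest it can give. This p is not adjusted and follows from the lack of overlap alone. The groups were apart in this direction in these 4 of the 12 probe sets, as in 0.429% of all probe sets, and in the other direction in 0 of the 12, as in 0.192%.

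RT1-Bb, the beta chain of the B pair, had signals from 90.8 to 180 in aged rats (median 110) and from 28.7 to 83.3 in young rats (median 58.1). Its log2 fold change was 1.10 (95% interval 0.49 to 1.72, adjusted p = 0.334 from limma), or 2.15-fold, with no overlap between the groups. A further RT1-Bb probe set, 1371065_at, lay below the cutoff in all 12 rats, at 0.881 to 17.8 in aged and 2.92 to 13.3 in young rats, and was not tested.

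The 4 probe sets of RT1-Ba, the alpha chain that pairs with RT1-Bb, did not read alike. The brightest, 1370822_at, ran from 77.3 to 185 in aged rats (median 129) and from 55.8 to 84.8 in young rats (median 70.1), with 4 aged rats above all young rats and 2, rats 2 and 5, within the young range. Its log2 fold change was 0.78 (95% interval 0.24 to 1.32, unadjusted p = 0.00852, adjusted p = 0.463 from limma, and p = 0.0173, not adjusted, from the exact permutation test). It passed the unadjusted threshold without any 1 of aged rats 2, 5 and 6 and young rat 4, and not without any 1 of the other 8 rats (0.66 to 0.83, unadjusted p = 0.0104 to 0.0209 from limma). Nor did it pass with the sample code series, described further on, as a block (0.73, unadjusted p = 0.0135 from limma), with quantile normalization or median centring (unadjusted p = 0.0373 and 0.0177 from limma), or with each probe set's own variance in place of limma's shared estimate (unadjusted p = 0.0138 with equal and 0.0225 with unequal variances). Probe set 1392334_at averaged 62.6 ± 19.8 in aged and 66.7 ± 31.8 in young rats (SD, n = 6 each), with a log2 fold change of 0.00077 (95% interval -0.71 to 0.71). Probe set 1381593_x_at ran from 18.0 to 136 in aged and from 25.8 to 69.9 in young rats, a log2 fold change of 0.28 (95% interval -0.80 to 1.37). Its 2 high values, above every young rat, came from aged rats 1 and 6. The fourth, 1377334_at, lay below the cutoff in every rat and was not tested.

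**Figure D3:**
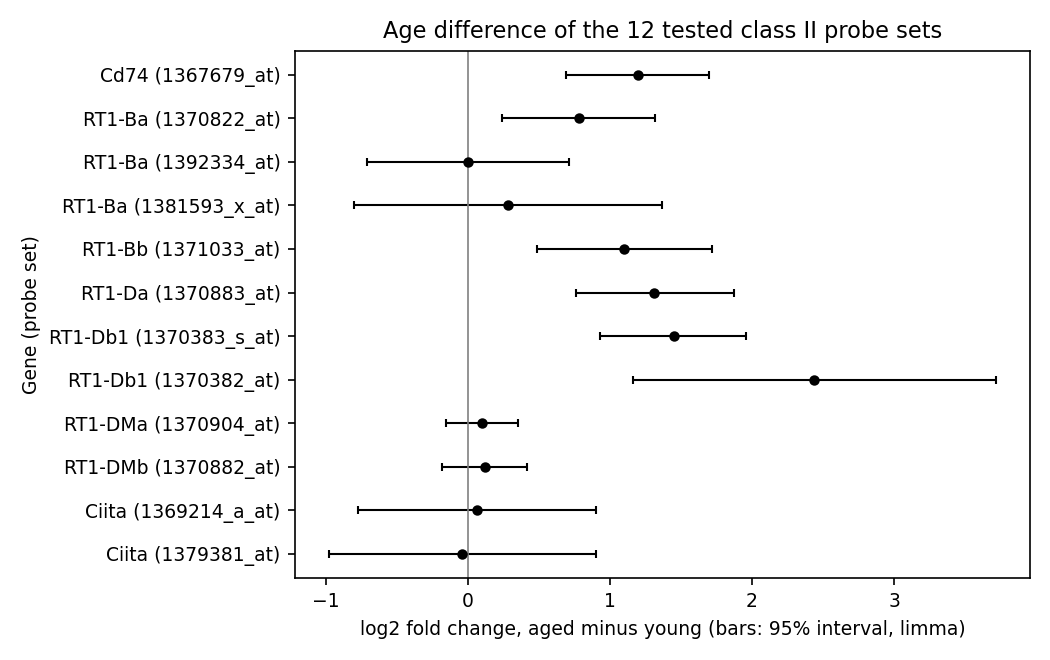
log2 fold change, aged minus young (x axis), of each of the 12 tested class II probe sets (y axis), with 95% intervals from limma. The intervals of Cd74, RT1-Bb, RT1-Da, both RT1-Db1 probe sets and the brightest RT1-Ba probe set lie above 0, and those of the other 6 include 0.

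The peptide editing chains had levels that overlapped between the age groups. RT1-DMa, the alpha chain of DM, ran from 382 to 485 in aged rats (median 457) and from 341 to 521 in young rats (median 415). The log2 fold change was 0.10 (95% interval -0.15 to 0.35, adjusted p = 0.895 from limma). RT1-DMb, the beta chain of DM, ran from 339 to 495 in aged rats (median 424) and from 293 to 460 in young rats (median 389). The log2 fold change was 0.12 (95% interval -0.18 to 0.42, adjusted p = 0.903 from limma), so the intervals of both DM chains end below 0.5 and leave out the measured changes of Cd74, RT1-Da, RT1-Db1 and RT1-Bb.

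Ciita was dim. Its brighter probe set, 1369214_a_at, ran from 22.2 to 97.1 in aged rats (median 57.3) and from 28.7 to 73.1 in young rats (median 43.9), a log2 fold change of 0.068 (95% interval -0.77 to 0.90, adjusted p = 0.988 from limma). The other, 1379381_at, ran from 6.37 to 46.7 in aged and from 19.2 to 49 in young rats, a log2 fold change of -0.038 (95% interval -0.98 to 0.90). Intervals this wide include changes as large as that of RT1-Ba, so these values do not settle whether Ciita changed by that much.

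The log2 ratio of Cd74 and of RT1-Da to RT1-DMa, RT1-DMb and Ciita within each rat shows the same values side by side. These 6 ratios were chosen after their values were seen, so they are given as a description with no test. The ratio of RT1-Da to RT1-DMa was -0.17 ± 0.60 in aged rats and -1.39 ± 0.35 in young rats (SD, n = 6 each), a difference of 1.21, and the groups did not overlap. The ratio of Cd74 to RT1-DMa was -0.015 ± 0.52 in aged and -1.11 ± 0.54 in young rats, with 5 of 6 aged rats above all young rats. The ratios to RT1-DMb differed by 1.08 for Cd74 and 1.20 for RT1-Da, each again with 5 of 6 aged rats above all young rats. The ratios to Ciita spread more widely, so that differences of 1.13 for Cd74 and 1.25 for RT1-Da left 2 of 6 aged rats above all young rats. Apart from Cd74 and Ciita these genes are near neighbours, since RefSeq orders the region on chromosome 20 as RT1-Da, RT1-Db2, RT1-Db1, RT1-Ba, RT1-Bb, RT1-DOb, RT1-DMb, RT1-DMa and RT1-DOa.

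The aged rats differed among themselves, and the classical genes ranked them much alike. For Cd74, aged rats 1, 4 and 3 were highest at 691, 568 and 491, and rats 6, 2 and 5 followed at 355, 318 and 306. For RT1-Da the order was the same, at 660, 540, 432, 347, 307 and 211. The same 3 rats led for RT1-Ba (161, 185 and 179 in rats 1, 4 and 3, against at most 97.4 in the others) and for RT1-Bb (180, 176 and 123, against at most 96.6). RT1-Db1 departed from this order, with rat 3 at 63.6 below rats 6 and 2 at 87.8 and 86.8. RT1-DMa and RT1-DMb were lowest or second lowest among aged rats in rat 1, the rat highest for Cd74, at 384 and 339.

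**Figure D4:**
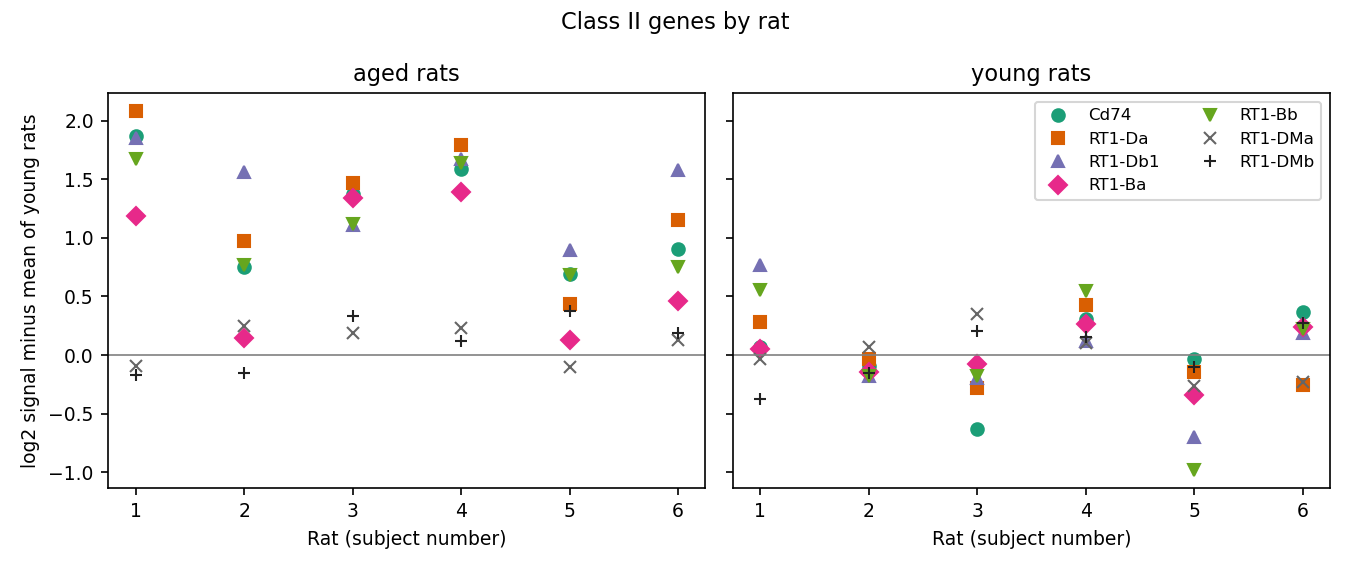
log2 signal of 7 class II genes minus the mean of the young rats (y axis) for each aged rat (left panel) and each young rat (right panel), by subject number (x axis). In aged rats 1, 3 and 4 Cd74, RT1-Da, RT1-Ba, RT1-Bb and RT1-Db1 all lie above 1, while RT1-DMa and RT1-DMb stay near 0 in every rat.

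Correlation of each member with Cd74 on the log2 scale was computed within each age group, 14 relations in all, each over 6 rats with exact permutation p-values. In aged rats r was 0.96 for RT1-Da (p = 0.00417, adjusted p = 0.0292; rho = 1.00, p = 0.00278, adjusted p = 0.0389, all exact). For RT1-Bb r was 0.96 (exact p = 0.00417, adjusted p = 0.0292), with rho = 0.94 (exact p = 0.0167, adjusted p = 0.117). For RT1-Ba r was 0.91 (exact p = 0.0514, adjusted p = 0.24), with rho = 0.83 (exact p = 0.0583, adjusted p = 0.204). Without aged rats 1 and 5, the farthest from the median of Cd74, r was 0.99 for RT1-Da, 0.94 for RT1-Bb and 0.98 for RT1-Ba. For RT1-Db1 r was 0.55 (exact p = 0.278, adjusted p = 0.556; rho = 0.83, exact p = 0.0583, adjusted p = 0.204), and -0.19 without the same rats. RT1-DMa, RT1-DMb and Ciita had r of -0.091, -0.32 and -0.77 (exact p = 0.831, 0.479 and 0.0986, adjusted p = 0.894, 0.619 and 0.345), with rho of 0.086, -0.60 and -0.66 (exact p = 0.919, 0.242 and 0.175, adjusted p = 0.919, 0.423 and 0.35), and 0.16, 0.60 and -0.65 without aged rats 1 and 5.

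In young rats no relation passed. There r with Cd74 was 0.58 for RT1-Ba, 0.43 for RT1-Bb, 0.46 for RT1-Da and 0.37 for RT1-Db1 (exact p = 0.222, 0.386, 0.378 and 0.486, adjusted p = 0.519, 0.601, 0.601 and 0.619), with rho of 0.71, 0.54, 0.37 and 0.66 (exact p = 0.136, 0.297, 0.497 and 0.175, adjusted p = 0.35, 0.462, 0.633 and 0.35). Without young rats 3 and 6 these r were 0.88, 0.67, 0.89 and 0.41. For RT1-DMa, RT1-DMb and Ciita r was -0.67, 0.022 and 0.20 (exact p = 0.149, 0.968 and 0.732, adjusted p = 0.416, 0.968 and 0.854), rho was -0.43, 0.26 and 0.31 (exact p = 0.419, 0.658 and 0.564, adjusted p = 0.587, 0.709 and 0.658), and r without these rats was 0.43, 0.59 and -0.51. Whether the relations differ between the age groups was not tested, and each code series described next holds too few rats of either age for a correlation.

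**Figure D5:**
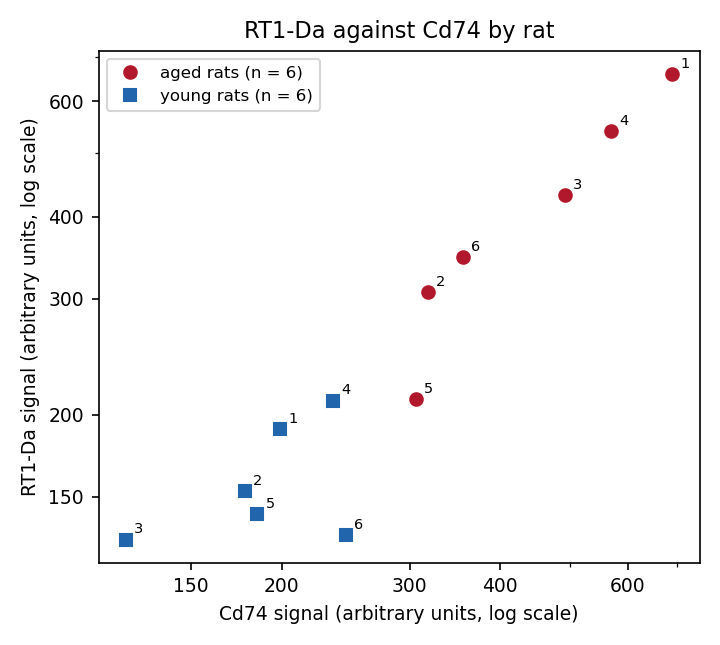
RT1-Da signal (y axis, log scale) against Cd74 signal (x axis, log scale), with 1 point per rat, numbered by subject. The 6 aged rats run along a line with r = 0.96, and the 6 young rats lie at lower signals with r = 0.46.

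By the codes in the labels, the arrays form a lower series (4 aged and 3 young rats) and a higher series (2 aged and 3 young rats), and aged rats 1, 3 and 4 all belong to the lower one. Within the lower series the log2 fold change was 1.61 for Cd74, 1.59 for RT1-Da, 1.42 for RT1-Db1, 1.23 for RT1-Bb and 1.07 for RT1-Ba. Within the higher series it was 0.58, 0.78, 1.37, 0.78 and 0.24 in the same order, each from the brightest probe set. Of the 12 probe sets, 4 were higher at an unadjusted p up to 0.01 in the lower series, 1 in the higher series and 5 with the series as a block, from limma, against 0.83%, 1.03% and 1.83% of all probe sets. The call lost with the block was that of RT1-Ba 1370822_at. What the series stand for is not given in the sources used here, and their difference was not tested.

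Genes whose pattern was most like that of Cd74 were sought by the correlation of deviations from each age group's mean, over 12 arrays and 11433 other genes above the cutoff on every array. RT1-Da (r = 0.81) and RT1-Ba (r = 0.81) were the 7th and 8th of these, and RT1-Bb (r = 0.68) was the 87th, while RT1-Db1 was below the cutoff in 1 young rat and so not ranked. The other 8 of the first 10 were Osbpl1a (r = 0.85), Kazn (0.84), Cldnd1 (0.83), Stau1 (0.82), Nmnat1 (0.81), Cxcr4 (0.81), Slirp (0.81) and Piga (0.80). Cxcr4 is a chemokine receptor, and Stau1 binds double-stranded RNA. These 8 had log2 fold changes with age from -0.15 for Osbpl1a to 0.39 for Piga (adjusted p from 0.676 to 0.999 with limma). RT1-DMb, RT1-DMa and Ciita had r of -0.16, -0.37 and -0.45 and were 7359th, 9499th and 10158th of the 11433.

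Other genes of the class II pathway were taken from lists, each gene by its brightest probe set, and none passed an adjusted p under 0.05 with limma. At an unadjusted p up to 0.01, 1.63% of all probe sets were higher and 0.514% lower, and at 0.05, 5.67% and 2.13%. Lists this short can give 0 at such shares, so a count of 0 does not show that these genes were unchanged. Of 8 class II transcription factors tested, 0 passed the unadjusted threshold in either direction, nor 0.05 (median log2 fold change 0.0099). Their smallest p-values belonged to Creb1, which binds the X2 site, at -0.12, to Rfxap, a subunit of the RFX complex on the X box, at -0.14, and to Irf1, an interferon response factor, at 0.17 (adjusted p = 0.743, 0.79 and 0.863). Of 6 genes of the interferon gamma pathway tested, likewise 0 passed either p (median 0.044), and Ifng itself lay below the cutoff in all 6 aged rats and in 5 of 6 young rats. Jak2, a kinase of the receptor, had -0.16, Gbp2, an interferon-induced GTPase, 0.37 and Ifngr1, a receptor chain, 0.11 (adjusted p = 0.689, 0.724 and 0.753). Of 14 genes of class II processing and turnover, 1 was higher at an unadjusted p up to 0.01 and 0 lower (median 0.14). It was the cathepsin Ctsz, at 257 ± 39.1 in aged and 173 ± 33.3 in young rats (SD, n = 6 each), and Ctsd and Ctsh, cathepsins of the endosome and lysosome, had 0.19 and 0.26.

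Of the costimulation and T cell contact list, 4 of 8 genes were on the array and 2 were tested. Cd4, which in the rat is also made by macrophages and microglia, was at 107 ± 16.4 in aged and 68 ± 19.7 in young rats (SD, n = 6 each), and no aged rat lay within the young range. Its log2 fold change was 0.71 (adjusted p = 0.465 from limma). A lack of overlap in this direction was found in 0.429% of all probe sets. Cd86, a costimulatory ligand, was at 39.2 ± 10 and 33.6 ± 10.1 in aged and young rats, and Cd40 lay below the cutoff in every rat. Class I heavy chains and peptide loading genes, the other arm of antigen presentation, had a median log2 fold change of 0.15 over 18 genes. Against 1.63% of all probe sets upwards and 0.514% downwards, 2 of the 18 passed the unadjusted threshold of 0.01 upwards and 0 downwards. These were the class I gene RT1-M3-1 at 0.39 and Tapbp, the chaperone tapasin, at 0.43, and RT1-CE16 followed at 0.28 (adjusted p = 0.131, 0.436 and 0.522 from limma). RT1-M3-1 and Tapbp, like Cd4, had no overlap between the groups, with aged rats higher. The difference of the class I genes from the class II values was not tested. No probe set was paired with RT1-DOa, RT1-DOb, RT1-Db2, RT1-Ha or RT1-Hb.

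Of 11 microglial genes, 1 was higher at an unadjusted p up to 0.01, 0 were lower, and none passed the adjusted threshold. Over all probe sets 1.63% were higher and 0.514% lower at this unadjusted p. The summed signal of the 11 genes ran from 3923 to 6051 in aged and from 3429 to 4210 in young rats. Of the 11, 9 had a log2 fold change above 0, against 57.7% of all probe sets, and the median was 0.22. Tyrobp, a signalling adaptor of microglia, was at 244 ± 52.1 in aged and 169 ± 27.2 in young rats (SD, n = 6 each), P2ry12 at 1043 ± 197 and 845 ± 88.3, and Sall1 at 491 ± 75.2 and 397 ± 30.6 (adjusted p = 0.382, 0.597 and 0.509 from limma). The mean log2 signal of this list stood 0.67 above the young mean in aged rat 6. In aged rats 1 to 5 it stood 0.004, 0.014, 0.20, 0.18 and 0.25 above it. The part of microglial number in the class II values was not tested.

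Among the 5 genes of the blood list (red cells and neutrophils), 2 passed the unadjusted threshold of 0.01 upwards, S100a9 and S100a8, and 0 downwards. None of the 4 B cell, 8 T cell and 2 dendritic cell genes tested passed it in either direction. The shares of all probe sets were 1.63% upwards and 0.514% downwards. Neither S100a9 nor S100a8 passed the adjusted threshold (adjusted p = 0.166 and 0.282 from limma). Both had no overlap between the groups, with aged rats higher, as had 0.429% of all probe sets. S100a8 exceeded the cutoff in 6 aged and 0 young rats. It thus passed the filter only through aged rats, and its call is a description. S100a9 and S100a8, calcium-binding proteins of neutrophils, were at 148 ± 59.1 and 46.8 ± 18.3 in aged rats and at 48.1 ± 15.5 and 11.8 ± 7.29 in young rats (SD, n = 6 each), and Alas2, an enzyme of red cell precursors, at 166 ± 54.8 in aged and 117 ± 35.8 in young rats. The 5 genes of this blood list were all higher, against 57.7% of all probe sets, with a median log2 fold change of 0.50. They sum from 6339 to 9822 in aged and from 5054 to 9355 in young rats. The 4 B cell genes tested were all higher (median 0.99), against 57.7% of all probe sets, at sums of 89.8 to 175 in aged and 61 to 122 in young rats. Among them Blk had 23.7 ± 9.88 in aged and 10.5 ± 10.4 in young rats, Cr2 22.0 ± 8.61 and 14.8 ± 11.9, and Ms4a1 20.6 ± 14.4 and 11.3 ± 12.8, all near the cutoff, while Cd79b lay below it in every rat. Of the 8 T cell genes tested 5 were higher and 3 lower (median 0.060), at sums of 303 to 460 in aged and 359 to 448 in young rats. They were led by Lck at -0.22, Cd8b at 0.60 and Cd5 at 0.34. Cd3d exceeded the cutoff in 1 aged and 1 young rat, Cd2 in 2 and 4, Cd3e in 3 and 5 and Cd3g in 5 and 5. Of dendritic cell genes 2 were tested, Flt3 at 0.20 and Batf3 at 0.53, at sums of 105 to 185 in aged and 85.4 to 164 in young rats, and Itgax lay below the cutoff in every rat. The part of blood and lymphoid cells in the class II values was not tested.

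Border macrophage genes had a median log2 fold change of -0.086, with sums of 261 to 463 in aged and 313 to 547 in young rats. Of these genes 4 of 8 were higher, against 57.7% of all probe sets. F13a1, a coagulation factor subunit of macrophages, had 0.50, Folr2 0.52 and the lectin Clec10a -0.98, and Ms4a7 lay below the cutoff in every rat. Of the 8 genes of meninges and choroid plexus 2 were higher and 6 lower (median -0.1). Their sums were 712 to 1288 in aged and 775 to 2429 in young rats. Of the 8, 1 passed the unadjusted threshold of 0.01 downwards and 0 upwards, against 0.514% and 1.63% of all probe sets. It was Lum at -0.75 (unadjusted p = 0.00878, adjusted p = 0.463 from limma), with 5 aged rats below all young rats. Kl was at 1.05 and Dcn at -0.32. All 7 endothelial genes were higher, against 57.7% of all probe sets (median 0.21, sums of 3767 to 5646 in aged and 3430 to 4297 in young rats). Cldn5 was at 0.21, Vwf at 0.47 and Flt1 at 0.28. The tissue was rich in neuronal, astrocytic and oligodendrocyte transcripts in both groups. Of the 10 neuronal genes 2 were higher and 8 lower (median -0.085), at sums of 57236 to 62806 in aged and 58201 to 70516 in young rats. Syn1 was at -0.14, Slc17a7 at -0.12 and Gad2 at -0.18. Of the 7 astrocyte genes 5 were higher and 2 lower (median 0.024), at 46478 to 57444 and 44258 to 55100 in aged and young rats. Gfap was at 0.41, S100b at 0.11 and Aldh1l1 at 0.041. All 6 oligodendrocyte genes were higher (median 0.22), at 32459 to 50935 and 31184 to 45539 in aged and young rats. Mag was at 0.38, Cnp at 0.24 and Mog at 0.35. Signs in these lists were not counted with median centring, under which the median over all probe sets was -0.042, against 0.029.

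The SD between rats on the log2 scale was larger in aged than in young rats for 6 of the 12 probe sets, against 60.0% of all probe sets. It was 0.59 in aged and 0.29 in young rats for RT1-Da, 0.60 and 0.23 for the brightest RT1-Ba probe set, and 0.48 and 0.36 for Cd74. For RT1-Db1 (1370383_s_at) it was 0.36 in aged and 0.49 in young rats, and for RT1-Bb 0.45 and 0.58. The median SD over all probe sets was 0.26 in aged and 0.22 in young rats.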

How the data were processed

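RNA of each rat was hybridised by the authors to 1 Affymetrix RAE230 2.0 array. The authors deposited 1 linear signal intensity per probe set and array, whose trimmed mean was 500.1 on every array and whose median ran from 167.9 to 194.3 in aged and from 161.6 to 171.9 in young rats. MAS5, GCRMA and R 2.7.1 stand in the processing notes of the submitters, while the methods name gcRMA for the signals and, among their quality measures, a scaling factor to a target of 500. The order of these steps is not given in the sources used here, so scaling to a common mean, and any background step, may have moved dim signals such as those of Ciita. The values were taken to log2. The number of arrays limits the precision.

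Probe sets above 4.3 (log2) on at least 3 of 12 arrays were tested. The methods give this limit for gcRMA values, together with a filter on annotation grade and 1 probe set per gene that were not applied here, so it is a looser filter. On single arrays 83.3% to 87.1% of the deposited values exceeded it, more than the share the paper gives as Present. Aged and young rats were compared by two-sided moderated tests (lmFit, then eBayes, of limma 3.58.1 under R 4.3.3), with p-values adjusted by Benjamini-Hochberg over 28193 probe sets. The code was first tested on simulated data. Every probe set of the 8 genes is named, with the 3 genes of smallest p in each other list and the 10 genes most like Cd74. Members and lists were chosen with earlier results of these data known, and the ratios and promoter motifs after seeing values or sequences. Symbols follow the platform annotation, updated by gene ID through RefSeq. Exact permutation tests went through every split or pairing in Python 3.11.15, with ranks from scipy 1.17.1, and figures used matplotlib 3.10.9. The alternatives changed the normalization, filter, log offset, feature, variance model, block (subject number or code series) or rats included. Water maze and sleep measures were not used here.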

Additional observations from a re-analysis of the deposited data

Results flagged for a closer look

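The signal of Ciita in young rat 2 stood apart from its group. On probe set 1379381_at it was 49, against 19.2 to 26.2 in the other 5 young rats, so that the gap made up 0.766 of the whole range of the group. On the other Ciita probe set, 1369214_a_at, young rat 2 lay within the range of the others. This was the 1 such value among 24 groups examined on linear signals (12 probe sets in aged and in young rats), and chance flags about 1 group in 20. The tests used log2, where low values stand further apart. There aged rat 2 was at 2.67 on Ciita 1379381_at, against 4.56 to 5.54 in the other aged rats. Without it the log2 fold change was 0.36, against -0.038 with all rats. Young rat 3 was at 0.23 on RT1-Db1 1370382_at, against 2.53 to 3.87 in the other young rats.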

How the results depend on the processing

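Under each alternative that tested them, Cd74, RT1-Da, RT1-Bb, both RT1-Db1 probe sets and the brightest RT1-Ba probe set kept a positive log2 fold change, and so did RT1-DMa and RT1-DMb. Leaving out 1 rat gave 5 to 6 class II probe sets higher at an unadjusted p up to 0.01 and medians of 0.45 to 0.65, and without aged rats 2 and 6 (chosen after seeing the data) there were 6. The count was 3 of 8 genes with each gene's probe sets averaged and 1 in the higher code series alone, which has 5 rats, against 1.94% and 1.03% of all features. The median was 0.20 over all 14 probe sets with no filter or with a cutoff of 3.5, 0.32 with each gene's probe sets averaged, 0.37 with quantile normalization and 0.94 with the brightest probe set of each gene. The count was 5 with quantile normalization and with median centring, against 0.944% and 0.905% of all probe sets. In both the brightest RT1-Ba probe set did not pass. With the subject number as a replicate block 1 class II probe set passed the adjusted threshold, RT1-Db1 at a log2 fold change of 1.45 (adjusted p = 0.0425 from limma, against 0.0598 to 0.763 under the other alternatives). The deviations of rats with the same number correlated at -0.0283 to 0.111. The titles give no pairing beyond this number, and most rats with the same number also share a code series.

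Signs turned for probe sets near 0. For Ciita 1369214_a_at they were -0.07 with array weights, -0.12 in the lower code series, -0.0028 with median centring, -0.094 with quantile normalization and -0.21 without aged rats 2 and 6, and -0.14 to 0.29 with 1 rat left out. For Ciita 1379381_at they were 0.013 with the code series as a block, 0.73 in the higher series, 0.0051 with array weights, 0.034 with 16 added to the signal and 0.23 without aged rats 2 and 6, and -0.22 to 0.36 with 1 rat left out. For RT1-Ba 1392334_at they were -0.038, -0.016, -0.07, -0.15 and -0.15 with array weights, the added 16, median centring, quantile normalization and without aged rats 2 and 6, and -0.17 to 0.17 with 1 rat left out, and for RT1-Ba 1381593_x_at -0.015 to 0.57 with 1 rat left out. The correlation of RT1-DMa with Cd74 in aged rats was 0.086 by Spearman's rho, and that of RT1-Bb, 0.94, did not pass (adjusted p = 0.117).

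Over all probe sets, 605 reached an unadjusted p up to 0.01, with 460 higher and 145 lower, against 266 and 221 with quantile normalization and 255 and 341 with median centring. The total was 377 in the higher and 303 in the lower series, 334 with 1 probe set per gene and 331 with their mean, both from fewer features, and 486 to 746 with 1 rat left out. The 7 probe sets past the adjusted threshold were 2 with Welch's test, with trend and robust variances, with the replicate block and without aged rats 2 and 6, 3 with median centring, 4 with quantile normalization, 0 in either series alone (1312 in the lower and 1823 in the higher at an unadjusted p up to 0.05), and 0 to 10 with 1 rat left out. It was 0 without aged rat 1, aged rat 3, aged rat 6 or young rat 1 (2105, 2250, 1972 and 2314 at an unadjusted p up to 0.05 with limma), 1 without young rat 4, and 4 without aged rat 2 or young rat 5. The cause of these changes was not tested.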
